A study of Capra hircus with 4 samples.

Results

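The genes described here are the splicing factors and heterogeneous nuclear ribonucleoproteins (hnRNPs) measured in goat longissimus dorsi, the long muscle of the back. They were chosen by name, as all goat genes whose symbol starts with SRSF and a digit, HNRNP, SNRP, SF3A, SF3B or U2AF. This gave 43 of 11208 named goat genes, held by 59 of 21195 unigenes, which are the sequences assembled from the reads and paired by the authors with a named goat gene. RNA-seq was done on 4 libraries of Cashmere goats aged 2 months by the labels, and each library was 1 sample. The control library is given by its label only as control, and the 3 treated libraries came from goats given ractopamine, a β-agonist fed to increase lean meat. Under the full scheme, the drug was given by mouth each morning at 1 mg/kg for 28 days and was then withheld for 21 days. The study took muscle during both periods and sequenced treated samples of 3 days, 1 in dosing and 2 in withdrawal, each with its control samples. Here there is 1 control library of no stated day, so day of sampling may be part of each difference from it, which was not tested. The labels do not say on which day a library was taken, so a treated library is called here by its number only. All samples were longissimus muscle, and the labels do not say how many animals stand behind a library. The 3 treated libraries are named as replicates by their numbers, but day of sampling and animal cannot be told apart from the spread among them.

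Splicing removes introns from pre-mRNA and joins the exons. The spliceosome that does this is built from small nuclear ribonucleoprotein particles (snRNPs), each a small RNA with a ring of Sm proteins and its own further proteins. The U1 snRNP binds the 5′ splice site, while U2AF binds the 3′ splice site and leads the U2 snRNP, with its SF3A and SF3B complexes, to the branch point. SR proteins bind exons and mostly favour their inclusion, and hnRNPs coat the pre-mRNA and often act the other way. In skeletal muscle, many transcripts of contractile proteins are spliced in forms that differ by fibre type and age.

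The members differ in sequence, and stretches of 50 codons are shown from the open reading frames that the authors annotated. SR proteins are shown since they had the widest ratio between treated libraries 1 and 3 among the groups below, and U2AF2 since it carries the same kind of repeat. Bases are written 5′ to 3′, and positions are counted from 1 at the first base of the reading frame in the unigene. Capitals mark pairs of adjacent codons for arginine and serine, in either order, which make up the RS domain through which SR proteins bind one another.
SRSF6, bases 178 to 327: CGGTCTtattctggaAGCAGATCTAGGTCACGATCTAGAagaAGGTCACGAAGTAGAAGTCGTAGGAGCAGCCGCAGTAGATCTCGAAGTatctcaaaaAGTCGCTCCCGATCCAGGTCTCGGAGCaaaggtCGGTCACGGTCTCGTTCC
SRSF4, bases 556 to 705: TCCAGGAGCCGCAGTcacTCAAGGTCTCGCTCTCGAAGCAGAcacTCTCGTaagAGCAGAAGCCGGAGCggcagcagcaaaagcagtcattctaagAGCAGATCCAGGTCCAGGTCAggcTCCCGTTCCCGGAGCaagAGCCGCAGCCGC
SRSF11, bases 175 to 324: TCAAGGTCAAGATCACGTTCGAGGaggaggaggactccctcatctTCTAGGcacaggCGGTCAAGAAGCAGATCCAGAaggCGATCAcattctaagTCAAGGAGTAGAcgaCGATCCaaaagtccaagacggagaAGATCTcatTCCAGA
U2AF2, bases 37 to 186: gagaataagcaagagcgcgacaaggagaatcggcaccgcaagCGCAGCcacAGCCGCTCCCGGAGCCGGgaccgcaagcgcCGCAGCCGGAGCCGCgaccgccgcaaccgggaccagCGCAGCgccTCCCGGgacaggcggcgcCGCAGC
Of the 50 codons shown, 41 were part of such a pair in SRSF6, 36 in SRSF4, 29 in SRSF11 and 19 in U2AF2. Over whole reading frames, SRSF6 held 77 pairs in 216 codons and SRSF11 held 39 in 294 codons. The longest reading frame of each Sm core gene held at most 1. The SR frames shown were those with the most pairs. In the unigene of highest count, the frame of SRSF1 held 1 pair in 61 codons, that of SRSF10 held 1 in 111 and that of SRSF5 held 3 in 119. Frames this short do not show that the protein lacks an RS domain. By this count the median was 7 pairs for the SR proteins, 4 for the hnRNPs and 15 for U2AF. These medians are not scaled to frame length, which was 183 to 903 bases for the SR proteins and 150 to 2574 for the hnRNPs. SF3B3 held 12 pairs in 1217 codons. A chromosome position cannot be given with these values, as the unigenes were assembled without a genome build being named.

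The goat gene U2AF1L4 was paired with a pair of unigenes, and their first 44 codons are shown because their bases differ. Capitals mark the bases that differ between them.
U2AF1L4, unigene c10146_g1: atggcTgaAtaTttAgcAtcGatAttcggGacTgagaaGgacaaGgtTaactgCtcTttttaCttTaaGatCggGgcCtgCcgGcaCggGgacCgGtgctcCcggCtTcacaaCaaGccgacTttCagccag
U2AF1L4, unigene c2365_g1: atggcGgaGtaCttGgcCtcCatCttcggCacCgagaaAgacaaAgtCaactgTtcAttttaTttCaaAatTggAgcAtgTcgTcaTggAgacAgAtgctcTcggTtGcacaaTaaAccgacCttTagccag
Of the 132 bases, 33 differed, 31 of them at the last base of a codon, and all 44 codons encoded the same amino acids. Unigene c10146_g1 matched the goat U2AF1L4 protein at 99% identity. Unigene c2365_g1 matched it at 88%, and its best nucleotide match was cattle U2AF1, the small subunit of U2AF. The second unigene held 300 of the 379 control counts of U2AF1L4, so the level given for U2AF1L4 is mostly that of a U2AF1-like transcript. Of the 59 unigenes, 6 matched their goat protein at under 80% identity, and those with more than 4 counts in any library are given beside their genes. The other 2 were a unigene of SNRPG at 57%, with 2 control counts, and one of SRSF10 at 75%, with 4.

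The depth differed widely among the libraries. The expected counts summed to between 6675218 and 8533046 per library, but the share of mitochondrial sequences was 23.3% for the control library against 41.1%, 89.4% and 54.4% for the treated libraries, by number. The counts of named goat genes were thus 6086312 in the control library, 3991046 and 2697657 in treated libraries 1 and 3, and 133809 in treated library 2. Levels are given as counts per 1000000 named-gene counts (cpm), and 3 counts, the limit that a count of 0 allows, stood for 0.493, 0.752, 22.4 and 1.11 cpm in the control library and treated libraries 1, 2 and 3. A value of 14.9 cpm in treated library 2 is 2 counts, and is given below as a value that cannot be told from that limit. In treated library 2, 15.3% of the named-gene counts fell on 1 unigene, c330_g1, whose pairing with TFCP2L1 goes against its best match, a human genomic clone. This share was at most 0.431% in the other libraries, and bacterial sequences took 1.27% to 7.50% of all counts. Of 12 skeletal muscle markers, 8 were measured and summed to 110735 cpm in the control library and to 102794, 112197 and 158505 cpm in the treated libraries, while the lists for B and plasma cells and for red blood cells had no measured gene. The adipocyte list (3 of 5 measured) summed to 14.8, 111, 859 and 28.5 cpm and the fibroblast list (4 of 6 measured) to 114, 168, 2220 and 270 cpm in the control library and treated libraries 1, 2 and 3. The list for endothelium and smooth muscle (7 of 7 measured) summed to 39486, 24995, 32606 and 55866 cpm, and to 351, 269, 882 and 467 cpm without ACTA2, which was paired among others with a unigene that best matched the skeletal actin ACTA1. The part of these cell types in the results was not tested. In such muscle samples, fewer cells of a type and less RNA per cell cannot be told apart.

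In the control library, the 43 genes held 18485 counts, or 0.304% of the named-gene counts (95% Wilson interval 0.299% to 0.308%). In treated library 1 they held 14674 counts or 0.368% (0.362% to 0.374%), and in treated library 3 they held 5887 or 0.218% (0.213% to 0.224%). In treated library 2 only 361 counts remained, a share of 0.270% (0.243% to 0.299%). The intervals of the control library and treated libraries 1 and 3 did not overlap. They cover counting error only, and with 1 control library there is no error between animals for it.

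The x-fold is the ratio of a share in a treated library to that in the control library. For the 43 genes together, it was 1.21 (95% exact interval 1.18 to 1.24) in treated library 1, 0.888 (0.798 to 0.986) in treated library 2 and 0.719 (0.698 to 0.740) in treated library 3. The direction in treated library 1 depended on the denominator, since the ratio was 0.909 when nameless and mostly mitochondrial unigenes of the pairing table were counted in the total and 0.851 per all expected counts. That in treated library 2 turned to 1.06 without c330_g1, ribosomal and bacterial unigenes, and to 1.05 when the median gene was set to 1. Treated library 3 was under 1 with each denominator, between 0.407 and 0.938. Treated library 1 was higher than treated library 3 by 1.68 times (1.63 to 1.74). A change of denominator multiplies every x-fold of a library by 1 factor. With the whole pairing table this factor was 0.751, 0.0278 and 0.588 in treated libraries 1, 2 and 3, with all expected counts it was 0.703, 0.0256 and 0.567, and with the median gene set to 1 it was 1.23, 1.19 and 1.30. Hence 0 of the 39 genes counted below had an x-fold above 1 in treated library 2 or 3 with either of the wider denominators. No level above the control that is given below for those libraries holds with them. With the median gene set to 1, 19 of the 39 were above 1 in treated library 2 and 17 in treated library 3.

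**Figure D1:**
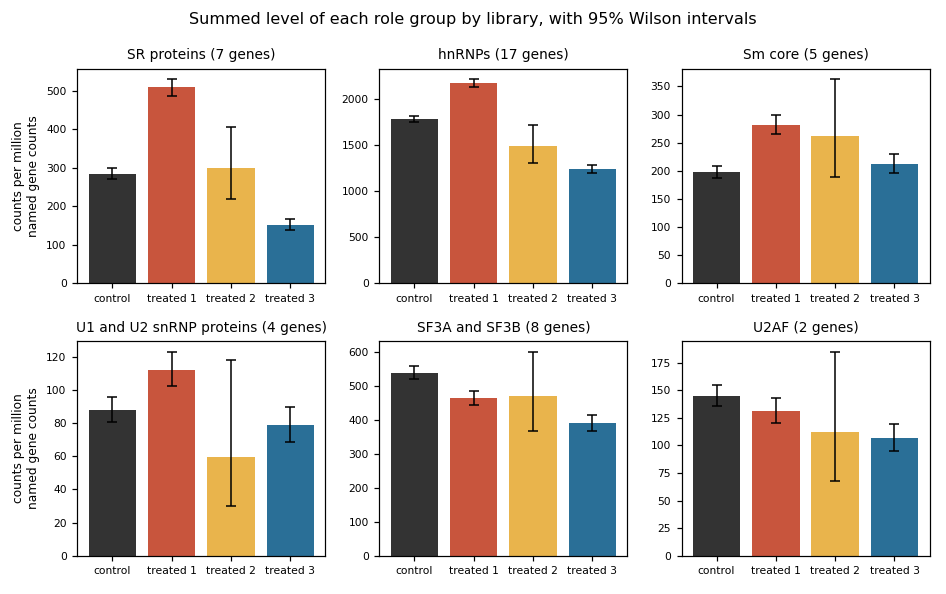
Summed level of the 6 role groups in each library, in counts per 1000000 counts of named goat genes, with bars from 0 and 95% Wilson intervals for counting error. The SR proteins are at 509 cpm in treated library 1 and at 152 cpm in treated library 3, on either side of the control library at 285 cpm, and the wide intervals of treated library 2 reflect its 361 member counts.

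The SR proteins differed most between the treated libraries. Their 7 genes summed to 285 cpm in the control library, 509 cpm in treated library 1, 299 cpm in treated library 2 and 152 cpm in treated library 3. The x-fold was 1.79 (1.67 to 1.91) in treated library 1 and 0.533 (0.478 to 0.594) in treated library 3, and 1.05 (0.747 to 1.43) in treated library 2. With other denominators the ratio was 1.26 to 2.20 in treated library 1 and 0.302 to 0.696 in treated library 3, so neither crossed 1. Treated library 1 stood 3.35 times (3.01 to 3.73) above treated library 3, the widest ratio among the 6 role groups.

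SRSF6, an SR protein that binds exonic enhancers, was the member with the largest x-fold in treated library 1. Its level was 74.4 cpm in the control library and 212, 52.3 and 40.4 cpm in treated libraries 1, 2 and 3, from 453, 848, 7 and 109 counts. Treated library 1 was far above the other libraries, and treated library 3 was the lowest. The x-fold was 2.85 (2.54 to 3.21) in treated library 1 and 0.545 (0.436 to 0.671) in treated library 3. SRSF7, an SR protein that also takes part in mRNA export, was at 29.7 cpm in the control library and at 77.7, 14.9 and 21.9 cpm in the treated libraries. It gave an x-fold of 2.61 (2.17 to 3.16) in treated library 1 and 0.740 (0.539 to 0.992) in treated library 3. SRSF11, an SR-related protein that binds the large subunit of U2AF, was at 29.6 cpm in the control library and at 58.6, 120 and 17.4 cpm in the treated libraries. Its x-folds were 1.98 (1.63 to 2.42), 4.16 (2.26 to 6.75, from 16 counts) and 0.594 (0.418 to 0.816), so here treated library 2 was the highest and treated library 3 again the lowest.

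The other SR genes were near the control in treated library 1 and low in treated library 3. SRSF1, the best known member of the family, was at 93.0 cpm in the control library and at 105, 97.2 and 52.3 cpm in the treated libraries. Of its 566 control counts, 63 came from a unigene whose best match was SRSF9, and a further unigene with 43% identity held 5 counts in treated library 1 alone. SRSF10, a splicing repressor when dephosphorylated, was at 20.4 cpm in the control library and at 22.8, 14.9 and 10.8 cpm in the treated libraries. SRSF5, an SR gene known to respond to insulin, had 98 counts in the control library against 81, 0 and 13 in the treated libraries. This gave an x-fold of 1.26 (0.927 to 1.71) in treated library 1 and 0.309 (0.154 to 0.536) in treated library 3. The x-folds of SRSF1, SRSF10 and SRSF5 in treated library 1 were under 1 with all expected counts or the whole pairing table as denominator. SRSF4, whose repeat-rich sequence is shown above, had 133, 50, 0 and 12 counts and was under the limit of a mean of 10 cpm set for the counts below. It was the only SR gene at a lower level than the control in treated library 1, at 12.5 against 21.9 cpm. In treated library 2, SRSF4 and SRSF5 had no count, and 3 counts there exceed their control level, so no fold is given.

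**Figure D2:**
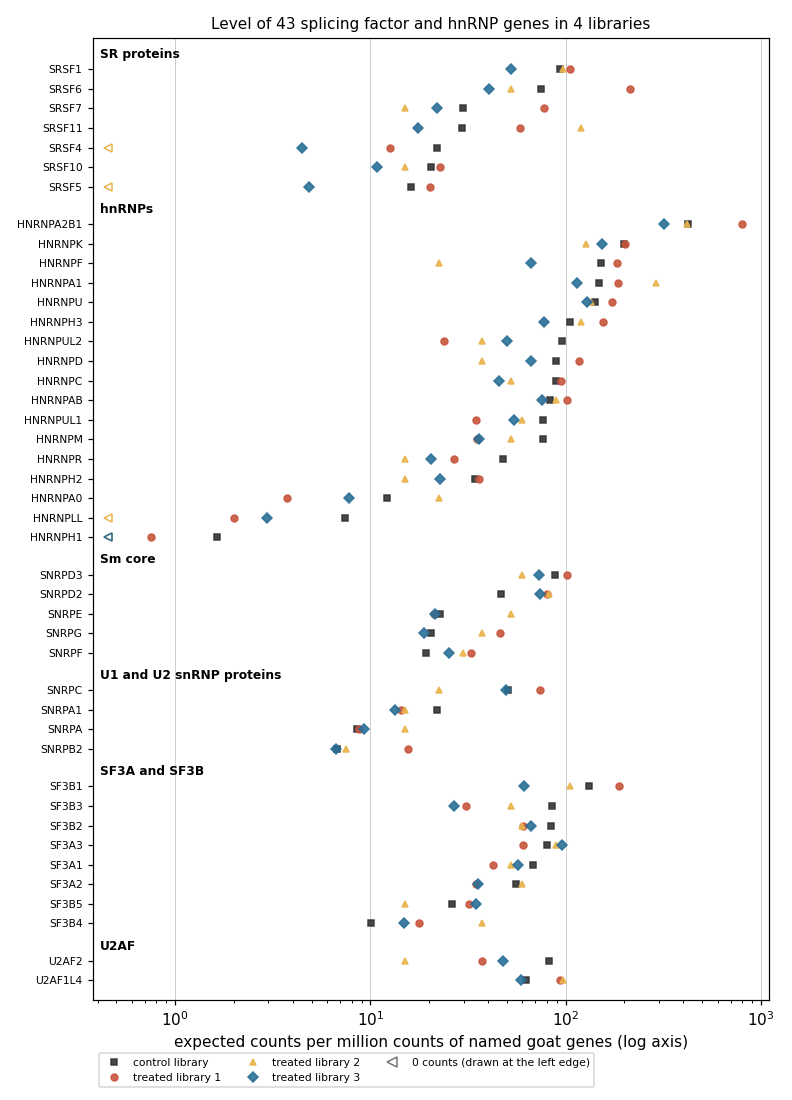
Level of each of the 43 genes in the control library and in treated libraries 1, 2 and 3, in counts per 1000000 counts of named goat genes on a log axis, by role group, where 1 symbol is 1 library. SRSF6 ranges from 40.4 to 212 cpm, and open triangles at the left edge mark genes with 0 counts.

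Per kilobase of unigene length, HNRNPA1, SNRPD2 and HNRNPA2B1 had the highest control levels of the 43 genes, at 108, 82.2 and 81.1 cpm per kb. HNRNPK followed at 60.9, SNRPC at 52.1 and HNRNPC at 49.3 cpm per kb, all 3 before HNRNPAB at 45.9. In treated library 1, HNRNPA2B1 at 154 and SNRPD2 at 142 cpm per kb were above HNRNPA1 at 135, in treated library 2 HNRNPA1 was the highest at 212 cpm per kb, and in treated library 3 SNRPD2 was at 130 cpm per kb. The order of the first 3 genes in treated library 1 and their order in the control library rest on 1 library each.

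The 17 hnRNPs summed to 1783 cpm in the control library and to 2176, 1495 and 1241 cpm in treated libraries 1, 2 and 3. The x-fold was 1.22 (1.19 to 1.26) in treated library 1, which turned to 0.916 with the whole pairing table and 0.858 with all expected counts as denominator, and 0.696 (0.670 to 0.724) in treated library 3. HNRNPA2B1, which binds RNA throughout the nucleus and guides mRNA transport, held 2580 of the 10849 control counts of the group. Its level was 424 cpm in the control library and 804, 419 and 320 cpm in the treated libraries. Treated library 1 was the highest, with an x-fold of 1.90 (1.80 to 2.00), and the x-fold in treated library 2 was 0.996 (0.744 to 1.29). HNRNPA1, a splicing repressor related to it, was at 149 cpm in the control library and at 185, 291 and 114 cpm in the treated libraries. HNRNPH3, a member of the family that binds G-rich RNA, was at 106 cpm and at 155, 120 and 77.5 cpm.

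Part of the hnRNPs were at a lower level in every treated library. HNRNPUL2, a protein related to HNRNPU, was at 95.5 cpm in the control library and at 23.8, 37.4 and 50.0 cpm in the treated libraries, which gave x-folds of 0.250 (0.199 to 0.310), 0.430 (0.127 to 0.919) and 0.526 (0.431 to 0.633). Its relative HNRNPUL1 was at 76.7 cpm in the control library and at 34.8, 59.8 and 54.5 cpm. HNRNPU itself, the scaffold protein of the nuclear matrix, was at 141 cpm and at 173, 135 and 128 cpm, so that the 3 related genes were not alike in treated library 1. HNRNPR, which also takes part in mRNA transport, was at 47.8 cpm and at 26.8, 14.9 and 20.4 cpm. HNRNPM was at 76.2 cpm and at 35.3, 52.3 and 36.0 cpm. Of its counts, 6 in treated library 1 and 3 in treated library 2 came from a unigene with 44% identity whose best match was a protozoan parasite of cattle. The control library was the highest of the 4 for each of HNRNPUL2, HNRNPUL1, HNRNPR and HNRNPM. In treated library 2, however, the interval of the x-fold included 1 for HNRNPUL1 (0.334 to 1.55), HNRNPR (0.0377 to 1.14) and HNRNPM (0.274 to 1.43). That of HNRNPM includes the 3 counts of the unigene with 44% identity.

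Of the 15 hnRNPs with a mean of at least 10 cpm, 10 had an x-fold above 1 in treated library 1, against 37.6% of all genes. In treated library 3, 0 did, against 31.6%. With either of the wider denominators 2 were above 1 in treated library 1, and with the median gene set to 1, 4 were in treated library 3. The share of all genes above 1 was not counted with those denominators. HNRNPF, which binds G-rich RNA, was at 151 cpm in the control library and at 182, 22.4 and 66.4 cpm in the treated libraries, with an x-fold of 0.441 (0.373 to 0.517) in treated library 3. Its 2 unigenes were not alike in treated library 1. That of 100% identity held 188, 57, 1 and 17 counts, and that of 94% identity held 730, 670, 2 and 162. The level of HNRNPF above the control in treated library 1 thus came from the unigene of 94% identity. HNRNPC, which binds uridine tracts, was at 89.1 cpm and at 94.5, 52.3 and 45.6 cpm, with an x-fold of 0.514 (0.417 to 0.624) in treated library 3. The levels of HNRNPK, HNRNPAB and HNRNPD in treated library 3 were 154, 75.3 and 66.7 cpm, against 199, 82.6 and 89.2 cpm in the control library. HNRNPH2 was at 34.3 cpm in the control library and at 35.8, 14.9 and 22.6 cpm in the treated libraries. HNRNPA0, which was lower in treated library 1, was at 12.2 cpm and at 3.76, 22.4 and 7.78 cpm. HNRNPLL (45, 8, 0 and 8 counts) and HNRNPH1 (10, 3, 0 and 0 counts) were too low for the mean of 10 cpm. The only unigene of HNRNPH1 had as its best match a cattle clone marked as chimeric.

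By named-gene counts, the Sm core was the only group with a summed level above the control in all 3 treated libraries. Its 5 measured genes summed to 197 cpm in the control library and to 282, 262 and 212 cpm in treated libraries 1, 2 and 3. The x-fold was 1.43 (1.32 to 1.55) in treated library 1, and was 1.01 to 1.77 with the other denominators. In treated library 2 it was 1.33 (0.920 to 1.86). In treated library 3 it was 1.08 (0.973 to 1.19), and turned to 0.633 with the whole pairing table and 0.610 with all expected counts. SNRPD2 was at 46.7 cpm in the control library and at 80.7, 82.2 and 73.8 cpm in the treated libraries. The 3 treated libraries lay close together and above the control, with x-folds of 1.73 (1.47 to 2.04), 1.84 (0.870 to 3.20) and 1.58 (1.31 to 1.90). SNRPF was also the lowest in the control library, at 19.2 cpm against 32.8, 29.9 and 25.2 cpm. Its x-fold intervals in treated libraries 2 (0.417 to 4.09) and 3 (0.958 to 1.78) included 1. SNRPG was at 20.5 cpm and at 45.9, 37.4 and 18.9 cpm, so treated library 3 did not share the higher level. SNRPE was at 22.8 cpm and at 21.0, 52.3 and 21.5 cpm. SNRPD3 was at 87.7 cpm and at 101, 59.8 and 72.7 cpm, but 158 of its 534 control counts came from a unigene with 35% identity whose best match was LSM4, a protein of the U6 snRNP.

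The proteins particular to the U1 and U2 snRNPs had few counts. SNRPC, the U1 protein that steadies the pairing with the 5′ splice site, was at 50.8 cpm in the control library and at 73.7, 22.4 and 49.3 cpm in the treated libraries. SNRPA, the U1 protein that binds U1 RNA, was at 8.54 cpm and at 8.77, 14.9 and 9.27 cpm, and these levels did not differ beyond counting error. SNRPA1, a protein of the U2 snRNP, was at 21.9 cpm and at 14.3, 14.9 and 13.3 cpm, and 2 of its 133 control counts came from a unigene whose best match was a proprotein convertase. SNRPB2, the partner of SNRPA1 in the U2 snRNP, did not reach the mean of 10 cpm and had 41, 62, 1 and 18 counts. Together the 4 genes gave an x-fold of 1.28 (1.12 to 1.45) in treated library 1, which was 0.958 with the whole pairing table and 0.897 with all expected counts as denominator.

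The SF3A and SF3B genes, whose proteins hold the U2 snRNP at the branch point, did not move as a block. Their 8 genes summed to 540 cpm in the control library and to 466, 471 and 391 cpm in the treated libraries. The x-fold was 0.863 (0.815 to 0.914) in treated library 1, which turned to 1.06 with the median gene set to 1, and 0.725 (0.676 to 0.777) in treated library 3. SF3B3 was at 84.9 cpm in the control library and at 30.8, 52.3 and 26.7 cpm in the treated libraries, which gave x-folds of 0.364 (0.296 to 0.442), 0.659 (0.246 to 1.28) and 0.316 (0.242 to 0.403). SF3B1, the large subunit next to it in the complex, was at 131 cpm and at 187, 105 and 61.2 cpm, with x-folds of 1.43 (1.29 to 1.58) and 0.467 (0.392 to 0.552) in treated libraries 1 and 3. SF3B3 was thus low in both of these libraries, whereas SF3B1 was on either side of the control. The ratio of treated library 1 to treated library 3 was 3.05 (2.58 to 3.64) for SF3B1 and 1.15 (0.856 to 1.57) for SF3B3.

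The other subunits differed in direction. SF3B4 was at 10.02 cpm in the control library and at 17.8, 37.4 and 14.8 cpm in the treated libraries, and the control was the lowest. Its x-fold interval in treated library 3 (0.967 to 2.24) included 1. SF3B5 was at 26.3 cpm and at 32.1, 14.9 and 34.8 cpm. SF3A3 was at 79.9 cpm and at 60.4, 89.7 and 95.3 cpm, which made it the only SF3A gene above the control level in treated library 3. SF3A1 and SF3A2 were at 68.0 and 55.7 cpm in the control library and at 42.6 and 34.6 cpm in treated library 1. SF3B2 was at 83.8 cpm and at 60.4, 59.8 and 66.4 cpm.

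The subunits of U2AF differed from one another. U2AF2, the large subunit that binds the polypyrimidine tract, was at 82.5 cpm in the control library and at 37.3, 14.9 and 47.8 cpm in the treated libraries. Its x-folds were 0.454 (0.374 to 0.545), 0.226 (0.0219 to 0.658, from 2 counts) and 0.581 (0.474 to 0.705). A unigene paired with U2AF2 whose best match was CCDC106 held 55, 2, 0 and 16 of these counts, and the main unigene held 383, 140, 2 and 94. U2AF1L4, with the U2AF1-like unigene included, was at 62.3 cpm and at 94.0, 97.2 and 58.9 cpm. Its x-fold was 1.51 (1.30 to 1.75) in treated library 1 and 0.948 (0.781 to 1.14) in treated library 3. The U2AF1-like unigene had 300, 323, 7 and 121 counts, and the other had 79, 52, 6 and 38.

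**Figure D3:**
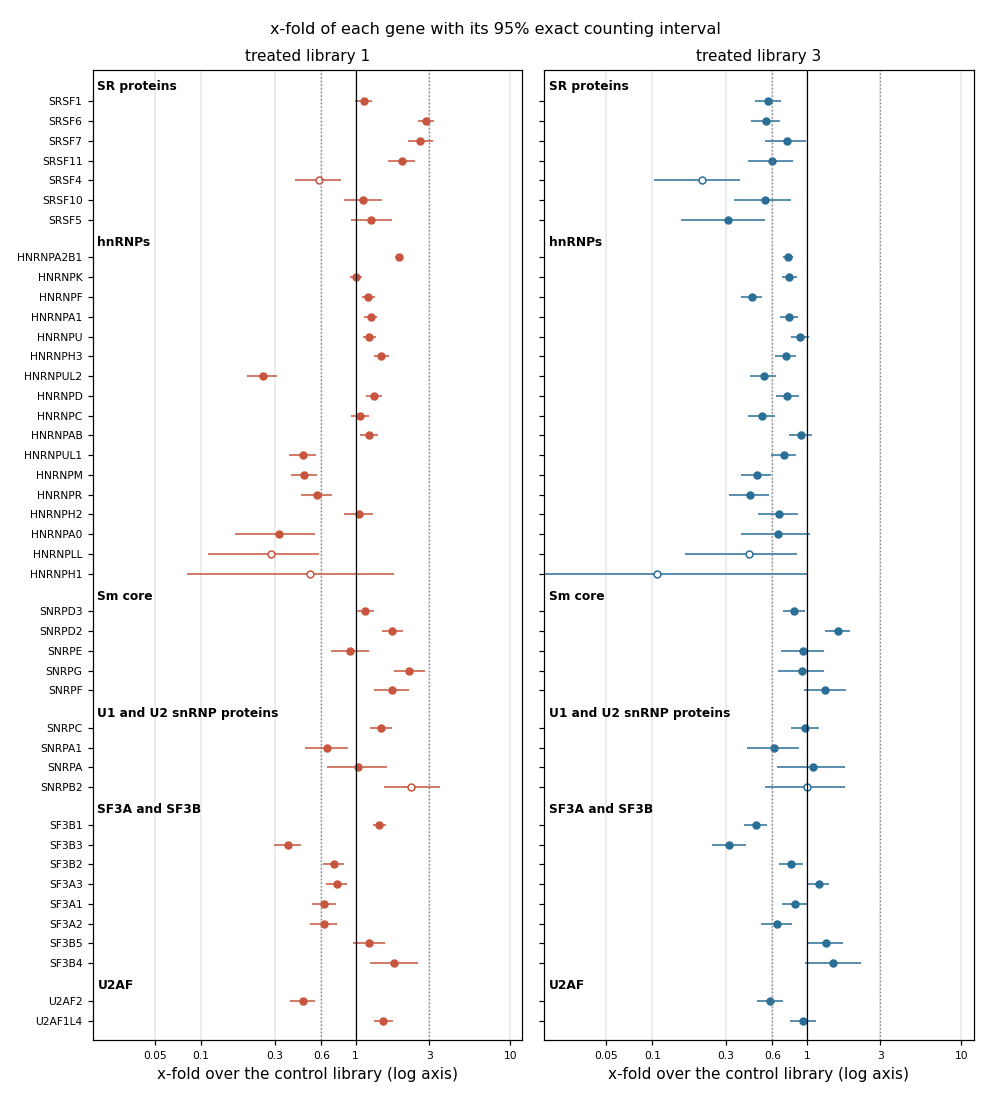
x-fold of each gene over the control library in treated libraries 1 and 3, on a log axis, with 95% exact intervals for counting error, dotted lines at 0.6 and 3, and open symbols for the 4 genes under a mean of 10 cpm. In treated library 1 SRSF6 and SRSF7 are the rightmost of the filled symbols and HNRNPUL2 the leftmost, and in treated library 3 most genes lie to the left of 1.

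The limits of 3 and 0.6 for the x-fold were those of the study, and counts were made over the 39 members, and over the 5348 named goat genes in all, with a mean of at least 10 cpm over the 4 libraries. The mean includes all groups, and HNRNPH1, HNRNPLL, SNRPB2 and SRSF4 did not reach it. In treated library 1, 7 of the 39 were below 0.6 and 0 were above 3, against 32.1% and 4.82% of all genes. The 7 were HNRNPA0, HNRNPM, HNRNPR, HNRNPUL1, HNRNPUL2, SF3B3 and U2AF2. In treated library 2, 8 were below and 2, SF3B4 and SRSF11, were above, against 35.7% and 12.8% of all genes. The 8 include SRSF5, which had 0 counts there, and with counts under 3 raised to 3 there were 7, against 26.6% of all genes. In treated library 3, 13 were below and 0 above, against 32.8% and 2.21%. The 13 included 5 of the 6 SR genes counted, which were SRSF1, SRSF5, SRSF6, SRSF10 and SRSF11. With the median gene set to 1, 4 members were below 0.6 in treated library 3, against 17.7% of all genes, and SRSF5 was the 1 SR gene among them.

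Members lower in several libraries were few. Below 0.6 in both treated libraries 1 and 3 were 5 members, HNRNPM, HNRNPR, HNRNPUL2, SF3B3 and U2AF2, against 20.2% of all genes, and 0 were above 3 in both, against 1.2%. Below 0.6 in all 3 treated libraries were HNRNPR, HNRNPUL2 and U2AF2, against 13.9% of all genes, and 0 members were above 3 in all 3, against 0.898%. Treated library 2 rests on 2 to 5 counts for each of these 3 genes. With only unigenes of at least 80% identity there were 4 members, as HNRNPM was then at 0.460, 0.461 and 0.484, with 4 counts in treated library 2. The share of all genes was not counted with that setting. The control library had the highest value of the 4 for 9 members, against 42.4% of all genes, and the lowest for 4, SF3B4, SNRPA, SNRPD2 and SNRPF, against 16.6%. The 9 include SNRPA1 and the 4 include SNRPA, each with 2 counts in treated library 2, and SNRPA1 was at a level in the control library under that of 3 counts there. The 3 comparisons share the control library. Between the treated libraries, 5 members were over 3 times higher in treated library 1 than in treated library 3, which were SF3B1, SRSF5, SRSF6, SRSF7 and SRSF11, against 5.46% of all genes, and HNRNPA0 and HNRNPUL2 were below 0.6, against 13.4%.

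The members lay somewhat higher than the bulk of genes in treated library 1. Their median log2 x-fold was 0.21, and that of all 5348 genes was -0.30. In this library 26 of the 39 had an x-fold above 1, against 37.6% of all genes. With the whole pairing table or all expected counts as denominator 12 of the 39 did, and all genes were scaled by the same factor. The share of all genes above 1 was not counted with those denominators. With all expected counts, the medians were -0.30 for the members and -0.81 for all genes. With named-gene counts, the 95% exact interval lay above 1 for 18 members, against 26.0% of all genes, and below 1 for 12, against 48.0%. In treated library 3 the medians were -0.44 for the members and -0.38 for all genes, and 6 of the 39 were above 1, against 31.6%. There the interval lay below 1 for 25 members, against 49.8% of all genes, and above 1 for SF3A3, SF3B5 and SNRPD2, against 18.9%. In treated library 2 the medians were -0.27 and -0.25. In treated library 3, longer unigenes had lower x-folds among the members (Spearman's rho -0.47 over 39 genes) as among all genes (-0.47 over 5348), which share the libraries and their depth. In treated library 1 these values were -0.10 and -0.31.

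**Figure D4:**
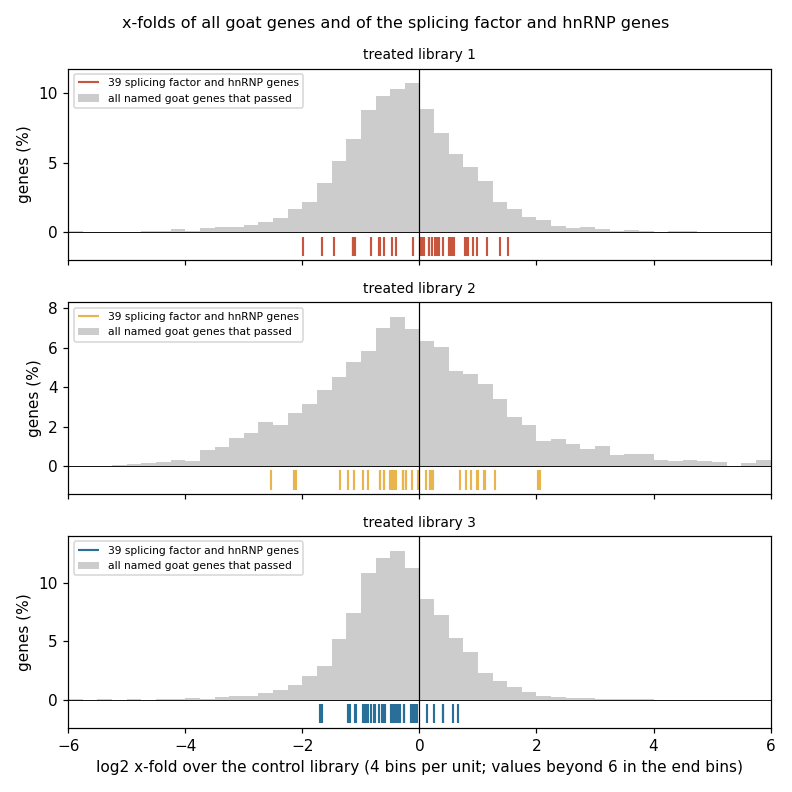
Histograms of the log2 x-fold of the 5348 named goat genes (grey, percent of genes in bins of 0.25) with 1 coloured tick for each of the 39 members counted, for treated libraries 1, 2 and 3. The members' median is 0.21 against -0.30 in treated library 1, and -0.44 against -0.38 in treated library 3.

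Over the 3 treated libraries together, no member was called. edgeR's quasi-likelihood test with Benjamini-Hochberg adjustment over 5348 genes called 0 of the 39 members and 0.0% of all genes at an adjusted p of 0.05. At an unadjusted p under 0.05 it had 504 genes, or 9.42%, and 0 members. DESeq2 called 4 genes and 0 members. The lowest adjusted p by edgeR among the members was 0.534, for SF3B3, with a log2 fold change of -1.34, and the next was 0.538, for HNRNPUL2, with -1.37, and both were lower than the control in 3 of 3 treated libraries. SRSF6 had a log2 fold change of 0.51 (adjusted p = 0.871), with 1 of 3 treated libraries above the control. The spread came from the treated libraries alone, with a biological coefficient of variation of 0.491, and the lone control library was assumed to vary like them. As the study sequenced 3 days and there are 3 treated libraries, that spread may hold time as well as animals.

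The transcripts within a unigene were compared for the 14 member unigenes with at least 2 transcripts and at least 100 counts in the control library and in treated libraries 1 and 3. The most abundant transcript's share of the unigene had an interval apart from that of the control in 2 of them in treated library 1 and in 1 in treated library 3. Of the 742 unigenes of all named goat genes that met the same limits, 27.8% and 15.8% did. For HNRNPF, the top transcript of its main unigene took 72.1% (95% Wilson interval 68.7% to 75.2%) of the 730 control counts, 94.2% (92.1% to 95.7%) of 670 in treated library 1 and 85.2% (78.9% to 89.8%) of 162 in treated library 3. For SF3B2, the share was 80.2% (76.5% to 83.4%) in the control library, 65.1% (58.9% to 70.9%) in treated library 1 and 72.6% (65.7% to 78.6%) in treated library 3. For SRSF6, with 5 transcripts, the share was 33.8%, 35.7% and 30.3%, with overlapping intervals, so its higher level in treated library 1 came without a measurable change of the leading transcript. HNRNPA2B1 and SRSF1 also had overlapping intervals, at 28.9% and 32.2% and at 39.6% and 40.3% in the control library and treated library 1. Those of HNRNPA2B1 only just overlapped (27.2% to 30.7% and 30.6% to 33.8%), and an overlap does not show that a share was unchanged.

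Beyond these families, 99 other splicing genes were listed, of which 86 were measured and 70 reached the mean of 10 cpm. In treated library 1, 2 of the 70 were above 3 and 13 below 0.6, where 4.82% and 32.1% of all genes were. Of the same genes, 6 were above and 24 below in treated library 2 (12.8% and 35.7% of all genes), and 22 were below in treated library 3 with 0 above (32.8% and 2.21% of all genes). The medians of the log2 x-fold were 0.07, -0.10 and -0.47. Above 3 in treated library 1 were CLK4, a kinase of SR proteins, with 101, 220, 2 and 37 counts and an x-fold of 3.31 (2.61 to 4.25), and PTBP1, a repressor of exons, with 88, 177, 6 and 44 counts and an x-fold of 3.06 (2.36 to 4.01). Of the genes below 0.6 in both treated libraries 1 and 3, those furthest from 1 in the nearer library were SNRNP200, a helicase of the U5 snRNP, CELF1, a muscle splicing regulator, DDX46, a helicase bound to the U2 snRNP, and CRNKL1. SNRNP200 was at 227 cpm in the control library and at 59.6, 59.8 and 71.2 cpm in the treated libraries. CELF1 was at 29.9 cpm and at 7.52, 14.9 and 9.27 cpm. DDX46 was at 18.6 cpm and at 5.51, 52.3 (7 counts) and 6.30 cpm, so treated library 2 went the other way, with an x-fold of 3.01 (1.11 to 5.998). CRNKL1 was at 25.1 cpm and at 10.02 and 11.9 cpm in treated libraries 1 and 3, with 0 counts in treated library 2. CLK4 and PTBP1 were named after their values had been seen.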

How the data were processed

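RNA-seq of longissimus muscle from 1 control and 3 treated libraries was analysed. Per the labels, libraries were made with a NEBNext Ultra kit and reads were checked with FastQC 0.10.1. The assembler, the counting tool and a genome build are not given in the sources used here. The authors assembled unigenes and deposited the expected count of each unigene and transcript in each library, and all these values were whole numbers. The authors also deposited TPM and FPKM, which were not used, and a table that pairs 21220 unigenes with goat proteins at 30% identity or more, of which 25 have no gene name and are mostly mitochondrial.

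Expected counts of the genes table were summed per named goat gene and divided by the summed counts of all named genes. Taking only named genes as goat-paired was decided after the counts had been seen, and the total of the whole table is an added alternative. The wording for mitochondrial, ribosomal and bacterial unigenes was also set after the annotation had been seen. The members and gene lists were chosen with earlier results of these data known. The x-fold was the ratio of shares with 0.5 counts added to each count. Shares have 95% Wilson intervals and ratios 95% exact Clopper-Pearson intervals, for counting error only. Genes with a mean of at least 10 cpm over the 4 libraries were counted. Named in full were the 10 members of highest level per kb in the control library, the 2 of highest control count per role group and those outside the limits the same way in treated libraries 1 and 3, and the other members were named by role. Of the other splicing genes, those furthest from 1 in treated libraries 1 and 3 were named. With 1 control library there was no test of a single ratio. The 3 treated libraries were compared with the control by edgeR 4.0.16 (R 4.3.3), with DESeq2 1.42.0 as an alternative. The edgeR step and the x-fold limits were tested on simulated data, and DESeq2 was not. The simulation for edgeR had a lower dispersion than the 0.241 estimated from the data, so it does not show the power reached here. All 43 symbols were found in the goat assembly ARS1.2, from which no coordinates were taken. Reading frames were read with Python 3.11.15 and biopython 1.88.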

Additional observations from a re-analysis of the deposited data

How the results depend on the processing

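The largest dependence was on the denominator. With all expected counts, the summed share of the members over the control was 0.851, 0.0227 and 0.407 in treated libraries 1, 2 and 3. The median log2 x-folds were -0.30, -5.56 and -1.25, against -0.81, -5.54 and -1.20 for all genes. Below 0.6 were 12, 39 and 33 members, against 52.8%, 98.9% and 71.4% of all genes. In treated library 2, 0 members were above 3, against 0.131% of all genes, and 11 were below in all 3. With the whole pairing table, added after the data were seen, these values for the members were 0.909, 0.0247 and 0.423, then -0.20, -5.44 and -1.20, then 12, 39 and 33, 0, and 11. Of all genes, 49.3%, 98.8% and 69.5% were below 0.6 with it. With the median gene set to 1, the summed shares were 1.49 and 1.05 in treated libraries 1 and 2 (added after the data were seen). In treated library 1, 2 members were above 3, against 7.22% of all genes. In treated library 3, where the members' median was -0.051, 4 were below 0.6, against 17.7% of all genes. None of the members, 0, were below in all 3. With the median gene set to 1, the share of genes below 0.6 among all genes outside the limits moved from 86.9% to 75.0% in treated library 1 and from 93.7% to 79.5% in treated library 3. Without c330_g1, ribosomal and bacterial unigenes, also added, the summed share was 1.06 in treated library 2.

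Without a filter, 5 members were below 0.6 in all 3 libraries. With the unigene of highest count only, or with unigenes of at least 80% identity, there were 4. The share of all genes below in all 3, 13.9%, was counted only with named-gene counts and the mean of 10 cpm. With a mean of at least 50 cpm, 21 members were counted. Of these, 2, 3 and 7 were below in treated libraries 1, 2 and 3, against 29.6%, 41.0% and 28.1% of all genes. In treated library 2, 1 was above, against 11.4% of all genes, and 1 was below in all 3. With limits of 2 and 0.5, 3 and 5 members were above in treated libraries 1 and 2, against 11.3% and 21.2% of all genes. In treated library 3, 6 were below, against 21.3% of all genes, and 0 were below in all 3. Requiring an interval that leaves out 1 left 4 below in treated library 2, where the interval lay below 1 for 20.8% of all genes. Leaving out each treated library in turn gave 3 to 5 members below in the remaining libraries. Without treated library 1 there were 5. Without treated library 2 there were 5, against 20.2% of all genes. The share of all genes was not counted without treated library 1 or 3. Of 567 x-folds of named genes under alternatives, 400 stayed within their interval, 167 left it and none of those outside the limits crossed 1. edgeR and DESeq2 called 0 members under each alternative run, with the lowest adjusted p between 0.191 (without treated library 2) and 0.991. For all genes, edgeR called 203 without a filter, 28 without treated library 1 and 34 without treated library 2, and 0 in the other edgeR runs. No paired analysis was possible because the control group has 1 library. Depth limits treated library 2, where 3 counts stand for 22.4 cpm.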
